A study of Homo sapiens with 4 samples.

Results

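The S100 genes encode small calcium-binding proteins, and 10 of them were followed here in a circZFR silencing experiment: S100A2, S100A3, S100A4, S100A6, S100A10, S100A11, S100A13, S100A14, S100A16 and S100P. They were taken by gene symbol from the 40205 genes listed for each library, and all 10 were found. None of the 9 S100 genes with enough reads for the test passed it, where 1.21% of all genes did. All 9 had a log2 difference below 0 in si-circZFR, as 49.6% of all genes did, with a median of -0.41 against 0.00 over all genes tested, and each had a transcript of at most 1203 nt in a set of libraries where short transcripts as a whole were lower.

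S100 proteins belong to the EF-hand class, named after the helix-loop-helix that holds the calcium ion, and most of them work as dimers. Calcium opens a hydrophobic face on the dimer that grips target proteins such as annexins, myosin and ezrin, and several family members also leave the cell and bind the receptor RAGE. S100A10 is the exception, since it is held in the open form without calcium and forms a complex with annexin A2. Many carcinomas, lung adenocarcinoma (LUAD) among them, carry high levels of some family members.

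RNA-seq had been done on LUAD cells 24 h after transfection with a negative control (NC 1 and NC 2) or with siRNA against circZFR (si-circZFR 1 and si-circZFR 2), 2 libraries per group. CircZFR is a circular RNA spliced from internal exons of ZFR, and no other agent or allele separated the groups. The labels name the line as H1299, while the study describes A549, and nothing states that the libraries came from separate cultures, so the p-values measure only the spread between these libraries. CDKN2A, which is deleted in A549, was listed at 0 in all 4 libraries, and 7 targets of NRF2, the antioxidant regulator that is constantly active in A549, summed to 5668 to 6731 RPKM.

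The libraries held 11040050 to 12816868 reads, of which 98.4% to 98.6% fell on listed genes. ZFR itself had 25.5 and 28.8 RPKM in NC and 5.35 and 5.13 RPKM in si-circZFR. The log2 difference was -2.34 ± 0.185 (SE, adjusted p = 0.0121). Its call was lost without a filter on genes, without NC 2 and without si-circZFR 2. With those libraries left out in turn, the log2 difference was -2.20 and -2.25. By RT-PCR in A549 and HCC827 cells, the study detected no effect of its circZFR siRNA on ZFR. Here ZFR was lower in both silenced libraries, and values per gene do not separate linear ZFR from circZFR. The NC libraries were less alike (Pearson r = 0.977 across genes) than the si-circZFR libraries (r = 0.987), and NC 1 correlated with si-circZFR 1 at r = 0.977. In bulk samples such as these, fewer cells of a type and less RNA per cell cannot be told apart. Among markers of other cells, the leukocyte gene PTPRC was listed at 0 in all libraries, the endothelial PECAM1 reached at most 0.0265 RPKM, and CD68, which tumour cells can also express, was at 61.1 to 79.5 RPKM.

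Of the 10 genes, 9 lie on chromosome 1 and S100P lies on chromosome 4 in the RefSeq annotation. The 100 bases before the RefSeq start site are shown for 5 of them on assembly GRCh38.p14: S100A6 and S100A11, the most abundant members, S100A3, the member with the largest difference, and S100A4 and S100P, the members with the widest gap between the NC libraries. Capitals mark the GC box letters GGGCGG in S100A6 and S100A11, the CCAAT letters in S100A3, and the TATA box letters TATAAA in S100A4 and S100P.
S100A6 (chr1:153535992-153536091, minus strand): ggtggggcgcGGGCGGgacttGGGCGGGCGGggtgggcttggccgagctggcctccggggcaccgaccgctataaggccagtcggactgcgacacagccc
S100A11 (chr1:152037005-152037104, minus strand): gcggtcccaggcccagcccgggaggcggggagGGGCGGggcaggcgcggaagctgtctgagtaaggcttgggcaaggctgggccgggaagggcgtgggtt
S100A3 (chr1:153549259-153549358, minus strand): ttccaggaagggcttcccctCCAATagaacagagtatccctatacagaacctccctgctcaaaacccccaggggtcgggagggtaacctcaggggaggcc
S100A4 (chr1:153545807-153545906, minus strand): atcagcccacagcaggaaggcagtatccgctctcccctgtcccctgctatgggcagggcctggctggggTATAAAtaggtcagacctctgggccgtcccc
S100P (chr4:6693778-6693877, plus strand): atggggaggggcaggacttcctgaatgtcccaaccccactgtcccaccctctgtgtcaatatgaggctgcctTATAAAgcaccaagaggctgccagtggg
The 2 downstream GC boxes of S100A6 share bases with each other, at positions -79 and -75 from the start site, and another lies at -90. The TATA letters sit at -31 in S100A4 and at -28 in S100P. In the 250 bases upstream and on both strands, GGGCGG was found in 6 of the 14 start-site windows that the table gives for the 10 genes (those of S100A3, S100A6, S100A10, S100A11, S100A13 and S100A16), or 42.9%, against 42.6% of 35116 RefSeq promoters. TATAAA was found in 3 of the 14 (S100A4, S100A13 and S100P) against 10.7%, CCAAT in 3 (S100A3, S100A13 and S100A16) against 32.0%, and the AP-1 letters TGAGTCA in 2 (S100A2 and S100A3) against 4.20%. These are matches of letters only.

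Levels are given as RPKM as deposited, that is reads scaled to the length of the transcript and to the depth of the library, so that they can be set side by side between genes. From the highest mean level to the lowest, the order was S100A6, S100A11, S100A4, S100A10, S100A16, S100A3, S100P, S100A13, S100A2 and S100A14, spanning 830 to 0.246 RPKM. Neighbours whose ranges over the 4 libraries overlapped were S100A6 with S100A11, S100A11 with S100A4, S100A10 with S100A16, and S100P with S100A13, and the other neighbours in the order were apart in every library. S100A6, S100A11 and S100A4 stood above 99% of the genes tested by their mean level (percentiles 99.64, 99.61 and 99.39). The 10 genes together summed to 2600 RPKM in NC 1, 3429 in NC 2, 2273 in si-circZFR 1 and 2260 in si-circZFR 2. NC 2 alone therefore stood apart, and NC 1 was nearer to the si-circZFR libraries than to NC 2.

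**Figure D1:**
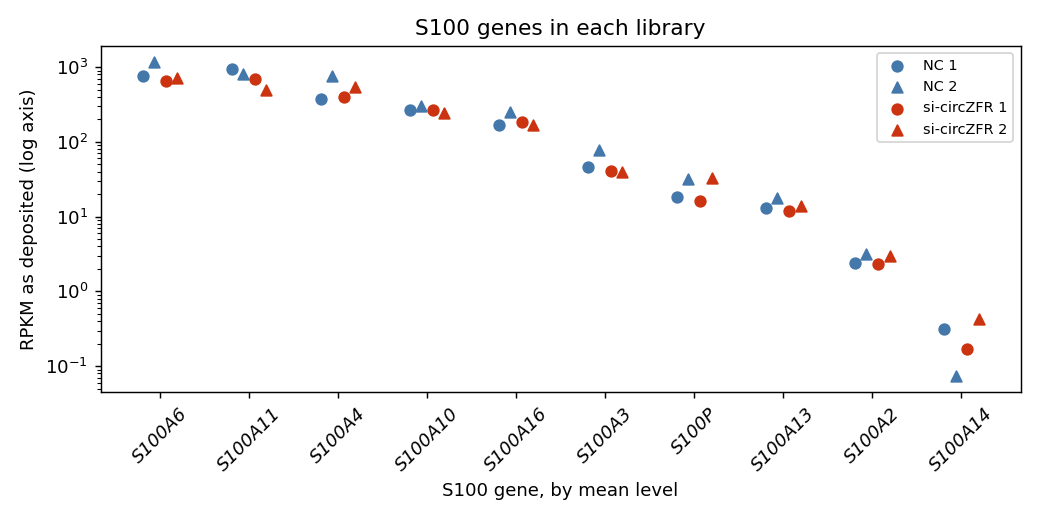
RPKM of the 10 S100 genes as deposited (log axis) in each library, with NC in blue, si-circZFR in red, circles for replicate 1 and triangles for replicate 2. The genes span from 1184 RPKM (S100A6 in NC 2) to 0.0735 RPKM (S100A14 in NC 2), and for most genes the NC 2 triangle is the highest of the 4 points.

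S100A6, also called calcyclin, binds the ubiquitin ligase adaptor CACYBP and annexins. Its level was 771 RPKM in NC 1, 1184 in NC 2, 648 in si-circZFR 1 and 719 in si-circZFR 2. Both si-circZFR libraries lay below both NC libraries, but NC 1 was closer to them than to NC 2. After scaling between libraries, the means were 1056 ± 384 RPKM in NC and 639 ± 8.46 in si-circZFR (SD, n = 2 libraries each). The log2 difference, si-circZFR minus NC on the log2(scaled RPKM + 1) scale that is used for all differences below, was -0.68 ± 0.375 (SE from limma, 95% interval -1.57 to 0.21), and it did not pass (adjusted p = 0.329, Benjamini-Hochberg over all genes tested). The gap between the NC libraries, 0.76 on the same scale, was larger than this difference, whereas the si-circZFR libraries differed by 0.03.

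S100A11, a partner of annexin A1 known for its part in membrane repair, had 934 RPKM in NC 1, 802 in NC 2, 702 in si-circZFR 1 and 497 in si-circZFR 2. It was the only tested member with less in NC 2 than in NC 1, and the groups did not overlap. Scaled means were 926 ± 37.0 RPKM in NC and 565 ± 169 in si-circZFR (SD, n = 2). The log2 difference was -0.74 ± 0.345 (95% interval -1.56 to 0.08, adjusted p = 0.258). Here the wide gap was inside the silenced group, where si-circZFR 2 was lower than si-circZFR 1 by a log2 difference of -0.62, against -0.08 between the NC libraries. Counting error of that gap was 0.0329 (SE, log2), from 4697 and 3258 reads. S100A11 also has processed pseudogenes among the listed genes, S100A11P1 with 12 to 26 reads and S100A11P2 with 20 to 54 reads per library, against 3258 to 6638 reads for S100A11.

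S100A4, or metastasin, binds non-muscle myosin heavy chain (MYH9) and is known for a role in cell motility. It had 378 RPKM in NC 1, 758 in NC 2, 395 in si-circZFR 1 and 544 in si-circZFR 2. The groups overlapped fully, since both silenced libraries lay between the NC libraries. The log2 difference was -0.40 ± 0.417 (95% interval -1.39 to 0.59, adjusted p = 0.602), and the gap from NC 1 to NC 2 was 1.14, the widest of all 9 tested members and far beyond its counting error of 0.0346. S100A11 and S100A4 have nearly the same transcript length, 594 and 564 nt, and both are abundant, yet their balance differed between libraries of the same group. The ratio of S100A11 to S100A4 was 2.47 in NC 1, 1.06 in NC 2, 1.78 in si-circZFR 1 and 0.913 in si-circZFR 2. The ranges of the groups overlapped, and the libraries of each group lay well apart.

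S100A10, the subunit that joins annexin A2 at the plasma membrane, was among the steadiest of the members. It had 266 RPKM in NC 1, 301 in NC 2, 270 in si-circZFR 1 and 241 in si-circZFR 2 as deposited. After scaling, both silenced libraries were below both NC libraries, with a log2 difference of -0.34 ± 0.249 (95% interval -0.93 to 0.25, adjusted p = 0.455). S100A16, a broadly expressed member, had 170 RPKM in NC 1, 253 in NC 2, 187 in si-circZFR 1 and 169 in si-circZFR 2. Its groups overlapped, and the log2 difference of -0.41 ± 0.287 (95% interval -1.10 to 0.27, adjusted p = 0.427) was smaller than the gap of 0.71 between the NC libraries.

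S100A3, a cysteine-rich and zinc-binding member known from hair cuticle, had the largest difference of the family in this comparison. Its level was 46.5 RPKM in NC 1, 78.9 in NC 2, 41.4 in si-circZFR 1 and 39.5 in si-circZFR 2, so both silenced libraries were below both NC libraries. Scaled means were 68.0 ± 29.1 RPKM in NC and 37.9 ± 3.52 in si-circZFR (SD, n = 2). The log2 difference was -0.76 ± 0.293, with an interval of -1.46 to -0.07 that excluded 0 before adjustment (unadjusted p = 0.0359 in the limma fit), and it did not pass after adjustment (adjusted p = 0.190). The value rested on NC 2: without NC 1 the log2 difference was -1.21, and without NC 2 it was -0.32. The gap from NC 1 to NC 2 was 0.89 and so larger than the difference between the groups.

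S100A13, which takes part in the release of FGF1 and interleukin 1 alpha from cells, had 13.2 RPKM in NC 1, 17.6 in NC 2, 11.8 in si-circZFR 1 and 13.9 in si-circZFR 2. After scaling the groups did not overlap, and the log2 difference was -0.42 ± 0.215 (95% interval -0.93 to 0.09, adjusted p = 0.299). In the RefSeq annotation S100A1 lies within the span of S100A13, and since no source states that strand was used in the counting, reads of overlapping genes may have been shared.

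S100P, the ezrin-binding and RAGE-binding member that is raised in many carcinomas, had 18.5 RPKM in NC 1, 32.3 in NC 2, 16.2 in si-circZFR 1 and 33.0 in si-circZFR 2. The groups overlapped fully, with a low and a high library in each. The gaps were 0.90 from NC 1 to NC 2 and 0.87 from si-circZFR 1 to si-circZFR 2, with counting errors of 0.168 and 0.183, whereas the difference between groups was -0.26 ± 0.372 (95% interval -1.14 to 0.62, adjusted p = 0.710). Both gaps within the groups were larger in size than the difference between them.

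S100A2, a mainly nuclear member, was near the lower end with 2.43 RPKM in NC 1, 3.16 in NC 2, 2.30 in si-circZFR 1 and 3.01 in si-circZFR 2. These values stood on 25 to 39 reads each, the groups overlapped, and the log2 difference was -0.20 ± 0.204 (95% interval -0.68 to 0.29, adjusted p = 0.598). S100A14, an epithelial member, had 4 reads in NC 1, 1 in NC 2, 2 in si-circZFR 1 and 5 in si-circZFR 2. It was not tested, and no difference was detectable at this depth. Of 10 further S100 genes, S100A7A, S100A8, S100A12, S100B, S100G and S100Z were listed at 0 in all libraries, and S100A5 alone had enough reads for the test (2.10 and 0.839 RPKM in the NC libraries, 1.38 and 1.62 in the silenced ones, log2 difference -0.04, adjusted p = 0.938).

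Read as a family, 0 of the 9 tested S100 genes passed the test by limma (adjusted p under 0.05 and an absolute log2 difference over 1), against 1.21% of the 14804 genes tested. At an unadjusted p under 0.05, 1 of 9 (S100A3) was lower, against 11.9% of all genes. With limma-voom on reads recovered from the RPKM values, again 0 passed (2.49% of all genes did), and 3 of 9 were lower at an unadjusted p under 0.05 (S100A3, S100A6 and S100A11), where 11.9% of all genes were. After scaling, both silenced libraries lay below both NC libraries for 5 of 9 (S100A3, S100A6, S100A10, S100A11 and S100A13), against 28.1% of all genes. They lay above both for none of the 9, against 27.8%. In RPKM as deposited, the groups of S100A10 and S100A13 overlapped. All 9 had a log2 difference below 0, against 49.6% of all genes. For 7 of 9 the gap between NC 1 and NC 2 was larger in size than the difference between the groups, and NC 2 was higher than NC 1 for 8 of 9 (median 0.71), against 51.4% of all genes. Between the si-circZFR libraries, si-circZFR 2 was higher for 5 of 9 (median 0.03), against 50.3% of all genes. Without NC 2, 7 of 9 had a log2 difference below 0 and the median was -0.16, and without NC 1 all 9 did and the median was -0.72. Without scaling between libraries the median of the 9 was -0.22, where the median of all genes was 0.145. With 2 libraries against 2, an exact two-sided permutation test of a single gene cannot go below p = 0.333.

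**Figure D2:**
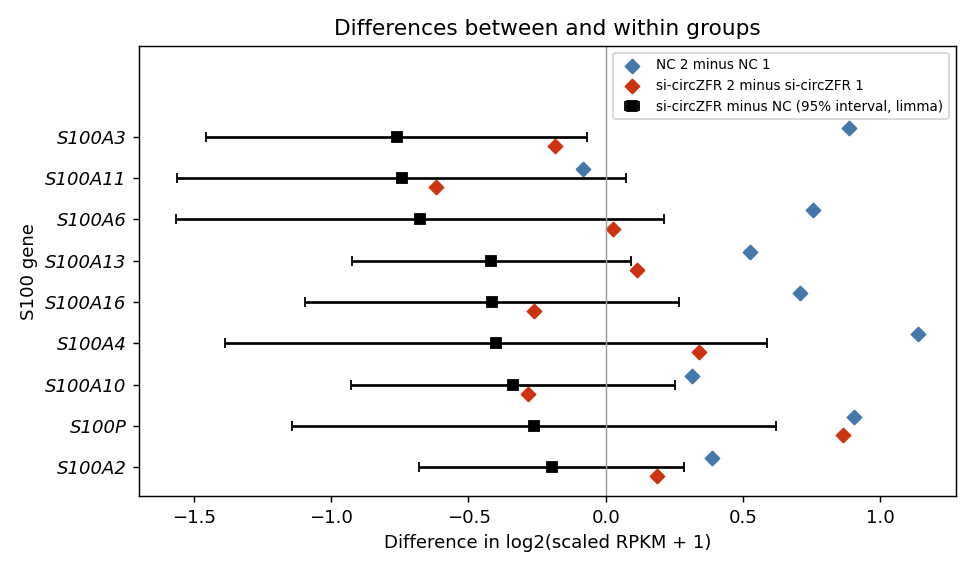
Log2 differences of the 9 tested S100 genes, si-circZFR minus NC with the 95% interval from limma (black squares), beside the gap from NC 1 to NC 2 (blue) and from si-circZFR 1 to si-circZFR 2 (red). The interval excludes 0 for S100A3 alone (-1.46 to -0.07), and the NC gap exceeds 0.70 for S100A3, S100A4, S100A6, S100A16 and S100P.

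The S100 transcripts are short, 510 nt (S100P) to 1203 nt (S100A16), against a median of 2887 nt for the genes tested, and the libraries differed by length. Across the 14804 genes, the log2 difference between groups correlated with transcript length at Spearman's rho = 0.315, a description across genes that share libraries. The gap from NC 1 to NC 2 followed length at rho = -0.392, the gap between the si-circZFR libraries at 0.0166, and without NC 2 the rho of the group difference was 0.140. In the 483 genes of 500 to 750 nt the median log2 difference was -0.46, in the 613 genes of 750 to 1000 nt it was -0.31, and in the 1444 genes of 1000 to 1500 nt it was -0.19. Genes of 5000 nt or more had a median of 0.11.

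Set against genes of like length, the S100 members lay inside the middle of the distribution with S100A3 outside it. Among genes of 500 to 750 nt, whose quartiles were -0.82 and -0.09, S100A11 (-0.74) and S100A6 (-0.68) were under the median and S100A4 (-0.40) and S100P (-0.26) over it. Among genes of 750 to 1000 nt, the quartiles were -0.62 and 0.02. S100A3 (-0.76) was under the lower quartile, with 17.9% of those genes lower still, and S100A2 (-0.20) was over the median. At 757 nt, S100A3 was close to the edge of its class, and its value lay within the quartiles of the 500 to 750 nt class. Among genes of 1000 to 1500 nt, with quartiles of -0.46 and 0.10, S100A13 (-0.42), S100A16 (-0.41) and S100A10 (-0.34) were between the lower quartile and the median. In all, 8 of 9 were within the quartiles of their length class, 6 under its median and 3 over it.

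**Figure D3:**
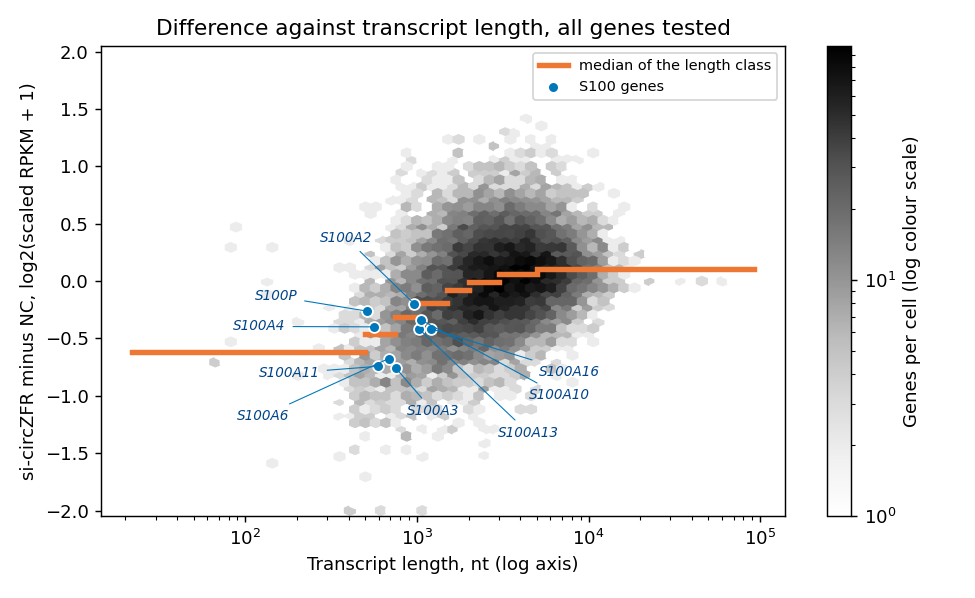
Log2 difference, si-circZFR minus NC, against transcript length in nt (log axis) for the 14804 genes tested (grey, darker for more genes, values beyond 2 drawn at 2), with the median of each length class (orange) and the 9 tested S100 genes (blue). The class medians climb from -0.62 under 500 nt to 0.11 at 5000 nt and over, and the S100 genes sit on both sides of the medians of their classes.

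When a smooth trend with length was removed from each library, the log2 difference moved toward 0 or past it for every tested member. The step shifts genes of like length alike, and genes of these lengths moved up as a whole. The direction of the move is therefore not a trait of the S100 genes. S100A3 came to -0.36, S100A11 to -0.24, S100A6 to -0.23, S100A16 to -0.20, S100A13 to -0.14 and S100A10 to -0.07. S100A2 (0.10), S100A4 (0.12) and S100P (0.30) turned to the other side of 0. The median was then -0.14, 6 of 9 were below 0 against 49.6% of all genes, S100A6 alone had both silenced libraries below both NC libraries against 27.5% of all genes, and all 9 intervals held 0. The median gap from NC 1 to NC 2 of the 9 was 0.41 after this step, against 0.01 over all genes tested. The gap of S100A4 between the NC libraries remained at 0.76, and that of S100A11 grew to -0.45. The gaps of these genes of like length thus stayed opposite in sign. The part of length in the difference of any single member was not tested.

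**Figure D4:**
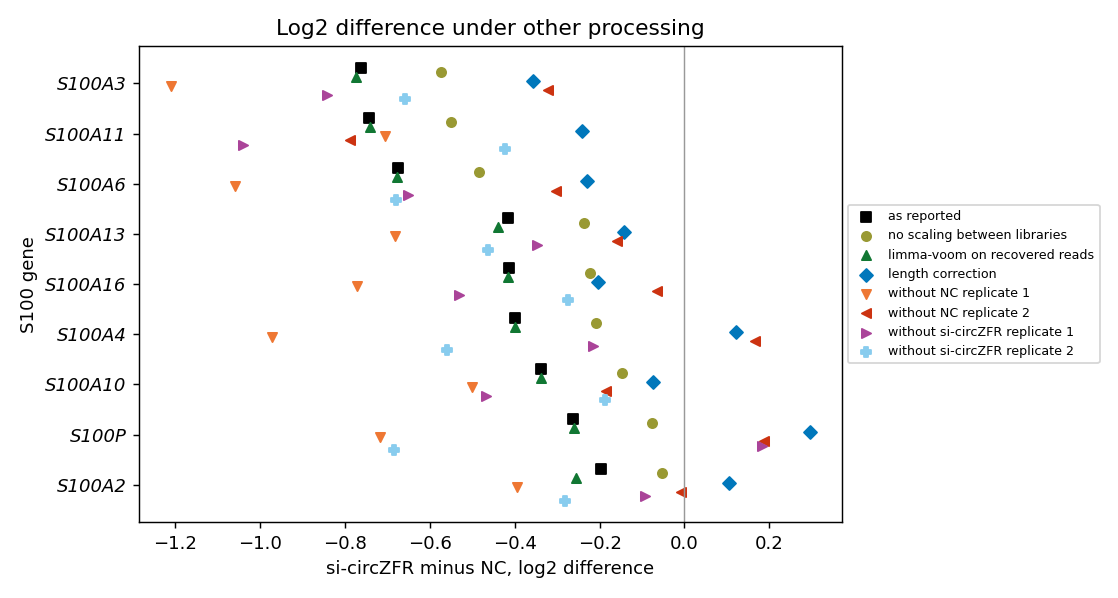
Log2 difference of the 9 tested S100 genes under the processing reported and 7 others (horizontal axis, symbols as in the key). S100A2, S100A4 and S100P lie right of 0 after the length correction (0.10, 0.12 and 0.30), and S100A3 spans from -1.21 without NC 1 to -0.32 without NC 2.

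Genes for known binding partners of S100 proteins gave a mixed picture. Of 28 listed, 23 could be tested and 0 passed (1.21% of all genes tested did), 4 had an unadjusted p under 0.05 (22.5% of all genes did), 3 of them higher and 1 lower, and the median log2 difference was -0.09. STIP1, the co-chaperone that links HSP70 and HSP90 and binds several S100 proteins, had 119 and 133 RPKM in NC and 75.6 and 69.8 in si-circZFR. Its groups were well apart, with a log2 difference of -0.98 ± 0.204 that missed the threshold (adjusted p = 0.0664). Without NC 1 the log2 difference of STIP1 was -1.13.

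Among the partners on the higher side, PLAUR, the urokinase receptor of the plasminogen system that S100A10 also serves, had 35.6 and 28.5 RPKM in NC and 47.1 and 56.8 in si-circZFR (log2 difference 0.49 ± 0.171, adjusted p = 0.158). KCNK3, an acid-sensitive potassium channel carried to the membrane with S100A10, was at 0.778 and 0.745 RPKM in NC and 1.54 and 2.03 in si-circZFR (log2 difference 0.55 ± 0.151, adjusted p = 0.107). At such levels the 1 added to each RPKM value (the pseudocount) shrinks the difference. For KCNK3 it was 0.94 with a pseudocount of 0.1 and 1.02 with limma-voom. EZR, which encodes the S100P target ezrin and is named here after its values were seen, had 67.2 and 77.6 RPKM in NC and 108 and 140 in si-circZFR (log2 difference 0.57 ± 0.210, adjusted p = 0.181). None of these 3 passed. Over the 23 partners tested, both silenced libraries lay above both NC libraries for 7 and below both for 8, against 27.8% and 28.1% of all genes.

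**Figure D5:**
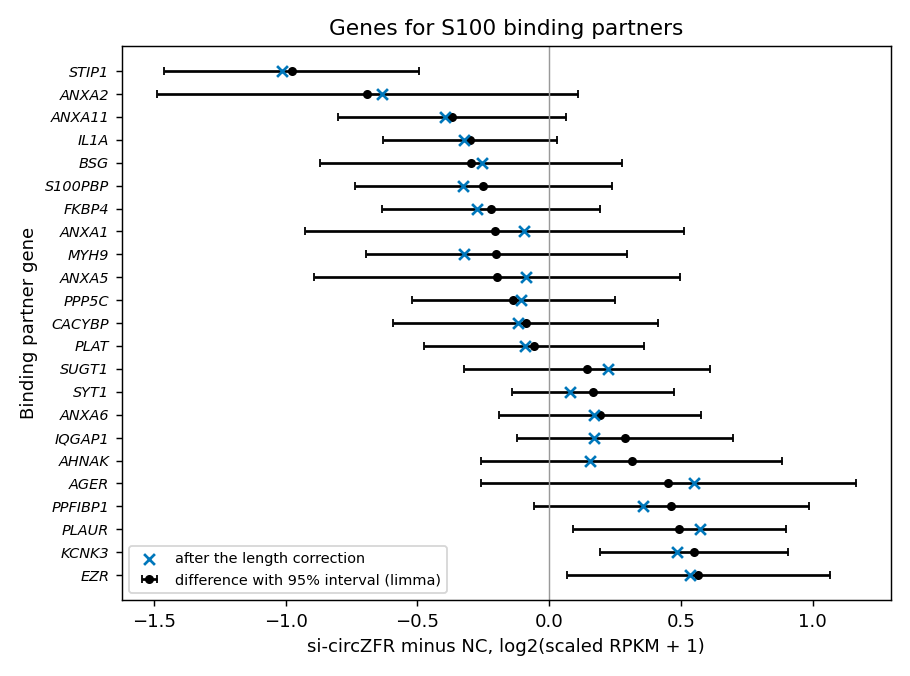
Log2 difference, si-circZFR minus NC, of the 23 tested genes for S100 binding partners with the 95% interval from limma (black) and the value after the length correction (blue crosses). STIP1 is lowest at -0.98 and EZR highest at 0.57, and none passed the test.

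The 12 annexins, calcium-dependent membrane binders that several S100 proteins hold, could all be tested, and 0 passed (1.21% of all genes did), with 0 at an unadjusted p under 0.05 (22.5% of all genes) and a median of -0.09. After the length correction 3 of the 12 had an unadjusted p under 0.05, ANXA2 and ANXA11 lower and ANXA4 higher, as 1571 genes were lower and 1697 higher of the 14804. ANXA2, the partner of S100A10, had 807 RPKM in NC 1, 1022 in NC 2, 648 in si-circZFR 1 and 637 in si-circZFR 2. The groups did not overlap, and the log2 difference was -0.69 ± 0.337 (adjusted p = 0.275). With the length correction it came to -0.63, and that of S100A10 went from -0.34 to -0.07. The size of such a move depends on transcript length alone, 1934 nt for ANXA2 and 1055 nt for S100A10. The unequal moves therefore say nothing further about the pair. ANXA11, a partner of S100A6, gave -0.37 ± 0.182 and ANXA4, another membrane-binding annexin, gave 0.36 ± 0.178 (adjusted p = 0.278 and 0.282).

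Of 25 other EF-hand genes, 24 could be tested and 1 passed the test, on the lower side, where 0.784% of all genes were called. This was PDCD6, which encodes the calcium sensor ALG-2 of vesicle transport. It had 54.0 RPKM in NC 1, 63.4 in NC 2, 25.8 in si-circZFR 1 and 22.3 in si-circZFR 2, and fell by 1.44 ± 0.205 on the log2 scale (adjusted p = 0.0444). The call was lost with the RPKM filter, without a filter, with a pseudocount of 0.1 and without the trend of the prior variance. It was also lost without NC 2, without si-circZFR 1 and without si-circZFR 2, at log2 differences of -1.26, -1.59 and -1.27. The call stood after the length correction (-1.23). With PDCD6, 4 of the 24 had an unadjusted p under 0.05, against 22.5% of all genes. The others were SRI, the calcium sensor sorcin (log2 difference -0.48, adjusted p = 0.156), EFHD2, the actin-binding swiprosin (0.61, adjusted p = 0.196), and NUCB2, the nesfatin precursor (0.43, adjusted p = 0.221), the last named after its values were seen. The median of this list was -0.06.

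The 10 genes next to the S100 cluster on chromosome 1 were all tested, 0 passed where 1.21% of all genes did, and their median log2 difference was 0.02. NPR1, a natriuretic peptide receptor, had the smallest p of them (log2 difference 0.54 ± 0.162, adjusted p = 0.122), followed by SLC27A3, a fatty acid transport protein (0.36 ± 0.154, adjusted p = 0.225). NPR1 and SLC27A3 were at most at 2.71 and 1.98 RPKM, where the pseudocount shrinks the difference. By limma-voom their differences were 0.87 and 0.64. SNAPIN, which binds SNARE proteins and at 526 nt is as short as the S100 transcripts, gave -0.48 ± 0.223 (adjusted p = 0.258), and 0.07 after the length correction.

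The tested genes whose pattern over the 4 libraries was nearest to that of S100A6, by the root mean square difference of centred log2 values, were COMMD3 (0.00653), MRPS18A (0.0198) and MRPS23 (0.0365), and 96 genes lay within 0.1. For S100A3 they were RPS4X (0.0174), NME2 (0.0180) and RPL24P2 (0.0361), with 52 genes within 0.1. RPL24P2 is a pseudogene whose reads may be shared with its parent gene. Of the other S100 genes, S100A3 was 83rd nearest to S100A6 (0.0978), and the other 7 tested ranked from 384th (S100A13, 0.157) to 4734th (S100A11, 0.376).

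Of 4 epithelial markers, 1 passed the test, where 1.21% of all genes did. KRT8, KRT18, CDH1 and EPCAM together summed to 1952 and 2405 RPKM in NC and 3074 and 3231 in si-circZFR. EPCAM, an epithelial adhesion molecule, passed the test at a low level (log2 difference 1.19, adjusted p = 0.0444). It had 0.389 and 0.363 RPKM in NC and 1.86 and 2.95 in si-circZFR. The pseudocount shrinks a difference at such levels, and limma-voom gave 2.32. Its reads were 4 and 4 in NC and 18 and 28 in si-circZFR. The CPM filter was therefore met by the silenced libraries alone, which limits the call. That call was lost with limma-voom, with the RPKM filter, without a filter, with a pseudocount of 0.1 or 5, without the trend of the prior variance and without NC 2, and EPCAM had too few reads for the test without si-circZFR 1 or without si-circZFR 2. KRT8 (adjusted p = 0.623) and KRT18 (adjusted p = 0.660), which made up most of the sum, did not pass. CDH1, which encodes E-cadherin, gave a log2 difference of 1.03 (adjusted p = 0.0537) and did not pass. It passed without scaling (1.21), with limma-voom (1.105) and with the replicate block (1.03). After the length correction CDH1 missed on the log2 threshold alone (0.94, adjusted p = 0.0492 by limma). The same held with the replicate block added to that correction (0.94, adjusted p = 0.0190 by limma). It did not pass under the other alternatives that kept all 4 libraries. The mesenchymal VIM stayed between 555 and 601 RPKM. The fibroblast marker COL1A1 was at 0.861 and 0.553 RPKM in NC and 1.36 and 2.09 in si-circZFR. The part of these markers in the S100 values was not tested.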

How the data were processed

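RNA-seq of 4 libraries was analysed, NC 1, NC 2, si-circZFR 1 and si-circZFR 2, grouped by the sample labels. The authors prepared them with an Ion Total RNA-Seq kit, sequenced them on the Ion Proton and deposited RPKM values per gene and library. The study names hg38 and the processing notes in the labels name GRCh37. The aligner, annotation and strand setting are not given in the sources used here. By its methods, the authors used SVA and edgeR. Since RPKM values are not counts, limma on log2(scaled RPKM + 1) was used here.

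Reads were recovered as the length at which all RPKM values of a gene became whole reads (24282 of 24289 genes above 0, tolerance 0.001), and transcript lengths are those lengths. Reads served for depth, for the filter and for limma-voom. A trimmed mean of log ratios to a common reference (trimming 30% of the ratios and 5% of the levels at each end) set the scale of each library. Genes with CPM above 1 in at least 2 libraries were tested (14804), with a trended prior variance and Benjamini-Hochberg adjustment, and passed at adjusted p under 0.05 and an absolute log2 difference over 1. The scripts were tested on simulated data. The length correction took a lowess curve (span 0.3) of each gene's deviation against log2 length from each library.

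The S100 genes, the other lists, the tests and the alternatives were chosen with earlier results of these data known. The CPM filter took the place of an earlier RPKM filter, which let very short genes with few reads in. Named were all S100 genes, ZFR, and from each list the genes that passed and up to 3 with the smallest p, and for S100A6 and S100A3 the 3 nearest genes. Alternatives covered scaling, filter, pseudocount, prior, limma-voom, length, a replicate block and leaving out each library. Promoters came from RefSeq (GRCh38.p14), where all 10 S100 genes matched. Fits were run with limma 3.58.1 in R 4.3.3, tables with pandas 2.3.3 and numpy 2.4.6 in Python 3.11.15, and figures with matplotlib 3.10.9. A marker of the cell line is not reported here.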

Additional observations from a re-analysis of the deposited data

How the results depend on the processing

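Over 15 alternatives and the 9 tested S100 genes, 135 values were computed, of which 9 lay on the other side of 0 from the value reported. These were S100A2 (0.10), S100A4 (0.12) and S100P (0.30) after the length correction, with and without the replicate block, S100A4 (0.17) and S100P (0.19) without NC 2, and S100P (0.18) without si-circZFR 1. With each library left out in turn, S100A4 ranged from -0.97 to 0.17 and S100P from -0.72 to 0.19. SNAPIN came to 0.067 after the length correction, with and without the block. No S100 gene passed under an alternative that kept all 4 libraries. The largest move of S100A3 was without NC 1, to -1.21, which is past the log2 threshold of 1. That fit rests on a single NC library, so a call of S100A3 in it is not read as a result. A library left alone in its group is assumed to vary like the other group.

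The number of genes that passed was 179 of 14804, with 63 higher. Without scaling it was 255 (162 higher), and the median log2 difference of all genes was then 0.145. It was 8 with the RPKM filter (4 higher) and 0 without a filter (0 higher, 3639 at an unadjusted p under 0.05). With a pseudocount of 0.1 it was 59 (20 higher), and with 5 it was 88 (24 higher). It was 46 without the trend (16 higher), 368 with limma-voom (167 higher) and 187 after the length correction (108 higher). With libraries left out in turn it was 0 to 980 (0 to 475 higher). It was 0 without NC 2, where 2894 genes had an unadjusted p under 0.05, and 980 without NC 1. The list of other EF-hand genes had 0 that passed with the RPKM filter, without a filter, with a pseudocount of 0.1 and without the trend, and 0 to 2 with libraries left out. The list of S100 partners had 0 to 1 with libraries left out. The causes of these moves were not tested.

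The replicate number as a block gave 291 genes (104 higher), and the replicate block with the length correction gave 352 (209 higher), with 1 in the list of S100 partners, STIP1. The gaps from library 1 to library 2 of the groups correlated at r = 0.0848 across genes, with only 2 pairs, so the numbers were not taken to pair the libraries. The block changed no call of an S100 gene. Depth limits S100A14 and S100A2 among the members.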
